A study of Mus musculus with 16 samples.

Results

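The last step of growth examined here was the passage of mouse oocytes from 50–55 μm to 60–65 μm in diameter, read from their total RNA. It was followed over the genes whose level was 0.5 RPKM or higher in 2 or more of the 4 libraries concerned, which were 10042 of the 25965 rows of the expression table. RPKM is the number of reads of a gene scaled to the length of its exons and to the total reads of the library, so it compares levels between genes per length and between libraries as a share of the library.

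The oocytes came from wild-type C57BL/6 mice (C57BL/6Babr in the study's methods) and were sorted by diameter under a microscope, with no treatment of any group. Oocytes of 50–55 μm were collected at postnatal days 9–14 and those of 60–65 μm at days 13–16, so that the size of the oocyte and the age of its donor cannot be told apart. Each class had 2 libraries, A and B, each made from many pooled oocytes, and the 10–30 μm (days 5–7) and 40–45 μm (days 7–12) classes, also in duplicate, gave the earlier steps. The series addresses how transcription relates to the timing of DNA methylation, and also holds 1 library of GV oocytes (day 20; fully grown, still with the germinal vesicle, that is, the intact nucleus) and methylation libraries that were not used here.

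During growth the oocyte remains arrested in meiotic prophase while its volume increases many times over. It is transcribed heavily, builds the zona pellucida around itself, and stores messenger RNAs and proteins that the egg and early embryo will use once transcription stops. Growing oocytes are also the stage at which the maternal DNA methylation pattern is laid down by DNMT3A with its cofactor DNMT3L. Because whole pools were sequenced, fewer cells with a transcript and less of it per cell cannot be told apart, and the amount of RNA per oocyte was not measured.

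The reads rebuilt from the RPKM values summed to between 28493645 and 48088244 in the 4 libraries. These sums leave out 12 rows whose reads were not rebuilt, among them the abundant Gm16211, Hexdc, Padi6, Nlrp14 and Zp2. Replicates correlated at r = 0.993 (50–55 μm) and 0.994 (60–65 μm) across genes on the log2 scale, whereas correlations between the classes lay between 0.981 and 0.993. The library of 60–65 μm replicate B was as close to 50–55 μm replicate A (r = 0.993) as the replicates of a class were to each other, and 60–65 μm replicate A stood further off (0.985 and 0.981). All 10 oocyte markers were at 11.6 RPKM or above in each of the 4 libraries. Of 16 granulosa cell markers, 7 were under 0.1 RPKM in all 4, among them Foxl2 and Krt19, the latter listed at 0, and the 16 theca, stroma, vessel and blood markers in the table included 7 under 0.1 RPKM. The summed level of the granulosa markers was 6.77 and 6.44 RPKM at 50–55 μm and 9.32 and 8.51 RPKM at 60–65 μm, and that of the other somatic markers 4.52 and 3.83 RPKM and then 6.32 and 5.9 RPKM.

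The last step was the smallest of the 3 steps between neighbouring classes. The steps are unequal in length, the midpoints of the classes lying 22.5 μm apart in the first step and 10 μm apart in the middle and the last, and a step is given whole, not per μm. The standard deviation over genes of the log2 change was 0.41 between 10–30 and 40–45 μm, 0.33 between 40–45 and 50–55 μm and 0.23 between 50–55 and 60–65 μm. A change of at least 1.5-fold was measured for 798 genes up and 360 down in the first step, for 501 up and 194 down in the middle step, and for 192 up and 83 down in the last. Part of each spread is replicate error, since the standard deviation over genes of replicate A minus replicate B was 0.30, 0.25, 0.19 and 0.18 from the smallest class to the largest.

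**Figure D1:**
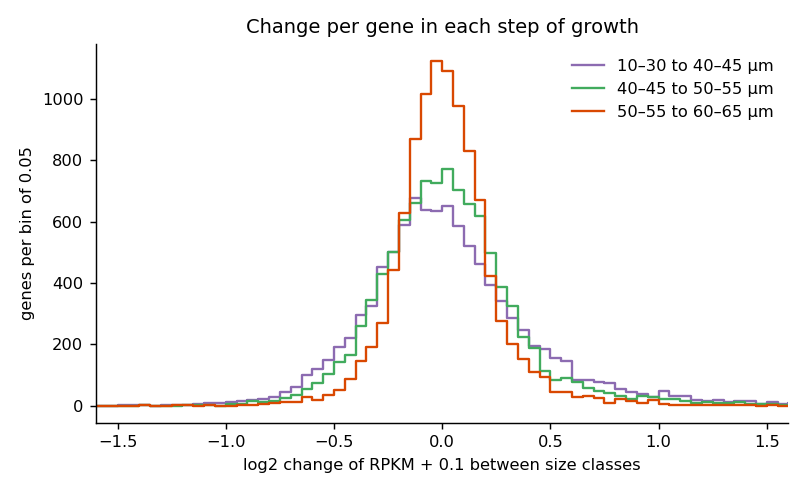
Number of genes (vertical axis, per bin of 0.05) against the log2 change of RPKM plus 0.1 (horizontal axis) for each of the 3 steps, over 10042 genes. The curve of the last step is the narrowest, with a standard deviation of 0.23 against 0.33 and 0.41 for the steps before it.

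No gene passed the test between 50–55 and 60–65 μm oocytes. With limma on log2(RPKM + 0.1), all 8 libraries of growing oocytes in 1 fit and Benjamini-Hochberg adjustment, 0 of 10042 genes (0%) had an adjusted p under 0.05, and the smallest adjusted p was 0.146. The call of 0 depended on the fit: limma voom on rebuilt reads with library quality weights, chosen after seeing the data, called 172 genes higher and 158 lower, and a pseudocount of 1 RPKM called 8 higher. A planned replicate block called 148 higher and 65 lower, but the letters A and B were not taken as pairs. In the fit of all 8 libraries 1232 genes rose (12.3%) and 868 fell (8.64%) in the first step, and 513 rose (5.11%) and 267 fell (2.66%) in the middle step. At an unadjusted p under 0.05, the last step had 701 genes higher (6.98%) and 619 lower (6.16%) in 60–65 μm oocytes. These counts depended on single libraries: without 60–65 μm replicate A they were 209 and 174, without 50–55 μm replicate B 266 and 241, and without 50–55 μm replicate A the lower genes were 368. Both 60–65 μm libraries lay above both 50–55 μm libraries for 2658 genes (26.5%) and below them for 2659 (26.5%). These shares are the background against which each group of genes is read in what follows, where a gene is called separated when its 2 pairs of libraries did not overlap. The overlap was judged on RPKM scaled between libraries. The RPKM values printed are not scaled, so those of a separated gene can overlap slightly, as for Mrpl32 and Psmc3ip.

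The genes with the largest differences were picked by size after their values were seen, from those with separated libraries and a mean of at least 1 RPKM in the higher class. Predicted genes and others known only by a clone or pseudogene name were left out. The 12 at the upper end had log2 changes from 1.00 to 1.51, that is up to 2.85-fold, with unadjusted p between 7.95e-05 and 0.00597 and adjusted p between 0.146 and 0.203. Cmtm8 and Defb41 were under 0.5 RPKM in both 50–55 μm libraries and passed the filter only through the 60–65 μm libraries in which they were high, so their differences are given as a description, and the ranges hold for the other 10 alone as well. Steap4, a membrane metalloreductase (GRCm38 chromosome 5, 7960472–7982213, plus strand), was at 0.106 and 0.0741 RPKM at 10–30 μm, 0.108 and 0.142 RPKM at 40–45 μm, 1.72 and 1.01 RPKM at 50–55 μm and 4.94 and 3.34 RPKM at 60–65 μm. Its log2 change in the last step was 1.51 ± 0.26 (SE), and its change in the step before was larger (2.64). Cmtm8, a MARVEL-domain membrane protein, was at 0.32 and 0.249 RPKM at 50–55 μm and 1.31 and 0.712 RPKM at 60–65 μm, and Stk32c, a serine/threonine kinase, at 0.665 and 0.514 RPKM at 50–55 μm and 2.38 and 1.34 RPKM at 60–65 μm. For these genes replicate A was the higher at 60–65 μm, as it was for all 12.

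The others at the upper end were mostly at a low level. Defb41, a beta-defensin, was at 0.492 and 0.291 RPKM at 50–55 μm and 1.55 and 0.923 RPKM at 60–65 μm. Mbd3l2, related to the methyl-CpG-binding protein MBD3, was at 2.07 and 1.15 RPKM at 50–55 μm and 5.04 and 3.29 RPKM at 60–65 μm. Aldh1a2, which makes retinoic acid from retinaldehyde, was at 0.864 and 0.797 RPKM at 50–55 μm and 2.21 and 1.52 RPKM at 60–65 μm, with a first step close to 0 (-0.17). Scin, an actin-severing protein of the gelsolin family, was at 0.74 and 0.539 RPKM at 50–55 μm and 1.82 and 1.34 RPKM at 60–65 μm, and Cldn15, a claudin of tight junctions, at 0.801 and 0.573 RPKM at 50–55 μm and 1.88 and 1.18 RPKM at 60–65 μm. Tctex1d1, Oas1f and Tubal3 completed the 12, with log2 changes of 1.25, 1.15 and 1.00, and Oas1f has close copies among which reads could be split.

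Cyp19a1, the aromatase that turns androgens into estrogens and a marker of granulosa cells, was in this group as well. It was at 0.502 and 0.515 RPKM at 50–55 μm and 1.25 and 1.04 RPKM at 60–65 μm, a log2 change of 1.00 ± 0.14 (SE; unadjusted p = 7.95e-05). Gata4, a transcription factor also listed as a granulosa marker, was at 0.623 and 0.679 RPKM at 50–55 μm and 1.34 and 1.17 RPKM at 60–65 μm, and Nr5a2, a nuclear receptor of the same list, at 3.78 and 3.91 RPKM at 50–55 μm and 4.81 and 4.6 RPKM at 60–65 μm. These 3 were the separated genes among the 4 of 16 granulosa markers that passed the filter, and their median log2 change with Inha was 0.53. The 12 that did not pass were under 0.5 RPKM in all 4 libraries, and of these 3 (Fshr, Kitl and Wt1) were separated and higher and 1 (Amhr2) lower, by RPKM without scaling. Fshr, the FSH receptor, was at 0.160 and 0.156 RPKM at 50–55 μm and 0.238 and 0.229 RPKM at 60–65 μm, and Kitl, the KIT ligand, at 0.357 and 0.290 RPKM at 50–55 μm and 0.495 and 0.409 RPKM at 60–65 μm. Amh, the hormone of granulosa cells of growing follicles, was at 0.281 and 0.190 RPKM at 50–55 μm and at 0.228 and 0.189 RPKM at 60–65 μm. Cyp19a1 was at 2.53 RPKM and Amh at 0.0697 RPKM in the GV library. The endothelial marker Pecam1, the only gene of the theca, stroma, vessel and blood list to pass the filter, was at 3.23 and 2.9 RPKM at 50–55 μm and 4.7 and 4.19 RPKM at 60–65 μm. Of the 15 others of this list in the table, all under 0.5 RPKM in the 4 libraries, 8 were separated and higher and 0 lower, by RPKM without scaling. Of the 8, Col3a1, a collagen of stroma, was at 0.196 and 0.114 RPKM at 50–55 μm and 0.259 and 0.216 RPKM at 60–65 μm, and Cyp11a1, which starts steroid synthesis, at 0.0383 and 0.0255 RPKM at 50–55 μm and 0.0750 and 0.140 RPKM at 60–65 μm. The part of other cells in these values was not tested.

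The 12 genes at the lower end had log2 changes from -1.16 to -0.78, that is 2.24-fold to 1.71-fold lower, with adjusted p between 0.146 and 0.159. Sohlh1 (chromosome 2, 25842995–25847248, minus strand), a basic helix-loop-helix factor that starts oocyte differentiation in primordial follicles, was at 49.6 and 45 RPKM at 10–30 μm, 8.99 and 13.4 RPKM at 40–45 μm, 2.98 and 3.51 RPKM at 50–55 μm and 1.17 and 1.74 RPKM at 60–65 μm. The level was lower at each step, and the last step (-1.16 ± 0.22, SE) was smaller than the first (-2.05), although the test of that difference gave an adjusted p of 0.203. Its partner Sohlh2 was at 2.12 and 2.7 RPKM at 50–55 μm and 1.17 and 1.49 RPKM at 60–65 μm. Smc1b, the cohesin subunit of meiotic chromosomes (chromosome 15, 85064691–85131957, minus strand), was at 31.7 and 29.2 RPKM at 10–30 μm, 14.4 and 13.1 RPKM at 40–45 μm, 7.29 and 8.27 RPKM at 50–55 μm and 4.01 and 5.1 RPKM at 60–65 μm. For each of these genes both 60–65 μm values lay below both 50–55 μm values, with replicate A the lower.

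Other genes were also at this end. Maged1, a MAGE-family adaptor protein, was at 5.73 and 7.93 RPKM at 50–55 μm and 2.73 and 3.76 RPKM at 60–65 μm, and Myot, a protein of the muscle Z-disc, at 5.81 and 7.16 RPKM at 50–55 μm and 3.06 and 3.81 RPKM at 60–65 μm. Bbx, an HMG-box factor, was at 0.971 and 1.26 RPKM at 50–55 μm and 0.493 and 0.629 RPKM at 60–65 μm. Kifap3, the adaptor of kinesin-2, was at 1.71 and 1.94 RPKM at 50–55 μm and 0.856 and 1.21 RPKM at 60–65 μm. Haghl, Glra4 and Sorcs3 had a first step within 0.2 of 0 on the log2 scale (-0.071, 0.11 and 0.057), and last steps of -0.80, -0.79 and -0.79. Abi3bp and Malt1 had last steps of -0.79 and -0.78. In the single GV library, all 12 genes of the upper end were above both 60–65 μm values, and 11 of the 12 at the lower end were below both, Abi3bp being the exception (1.25 RPKM). With 1 GV library this has no replicate check.

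**Figure D2:**
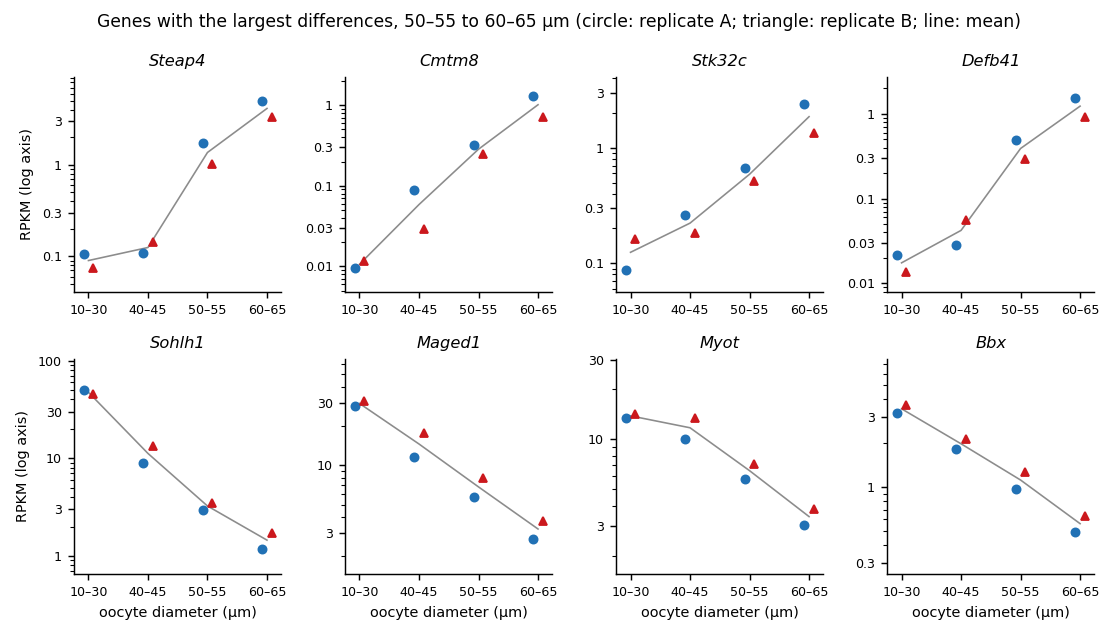
RPKM on a log axis against the oocyte size class for the 4 genes at the upper end (upper row) and the 4 at the lower end (lower row) of the differences from 50–55 to 60–65 μm, with replicate A as circles, replicate B as triangles and a line through the class means. Steap4 went from 1.72 and 1.01 to 4.94 and 3.34 RPKM and Sohlh1 from 2.98 and 3.51 to 1.17 and 1.74 RPKM.

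Genes that had moved early were followed into the last step. The first step and the last share no library, and the log2 changes of the 10042 genes in these 2 steps had a Pearson's r of 0.504 and a Spearman's rank coefficient of 0.488, which are descriptions across genes that share libraries within each step and are not independent. Of the 1232 genes that rose from 10–30 to 40–45 μm, 773 (62.7%) were separated and higher at 60–65 than at 50–55 μm and 95 (7.71%) were separated and lower, beside 26.5% of all genes each way. Of the 868 genes that fell in the first step, 547 (63.0%) were lower and 79 (9.10%) higher. Among the 7942 genes not called in the first step, 1806 (22.7%) were higher and 2017 (25.4%) lower. The tested genes include 126 that passed the filter only through both 60–65 μm libraries and 54 only through both 50–55 μm libraries. The filter itself fixes the direction of those genes in the last step. How many of them are in the counts and medians of early risers and fallers was not determined.

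Over these genes the changes became smaller with each step. The median log2 change of the early risers was 0.66, 0.36 and 0.17 in the 3 steps in order, and that of the early fallers -0.54, -0.32 and -0.16. The first of these values chose the genes and is a description, and the middle step shares its libraries with both neighbours. In the last step, the lower and upper quartiles were 0.046 and 0.33 for the early risers and -0.29 and -0.045 for the early fallers. When each 60–65 μm library was set against each 50–55 μm library, the medians lay between 0.12 and 0.22 for the risers and between -0.21 and -0.12 for the fallers. None of these genes passed the adjusted test in the last step, so that 0 genes were called in both the first and the last step, against 90 with library quality weights and 2 with a pseudocount of 1 RPKM. A replicate block gave 135, but the letters A and B were not taken as pairs. At an unadjusted p under 0.05, 316 of the early risers (25.6%) were higher again, 25 (2.03%) were lower, 219 of the early fallers (25.2%) were lower again, and 12 (1.38%) were higher.

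**Figure D3:**
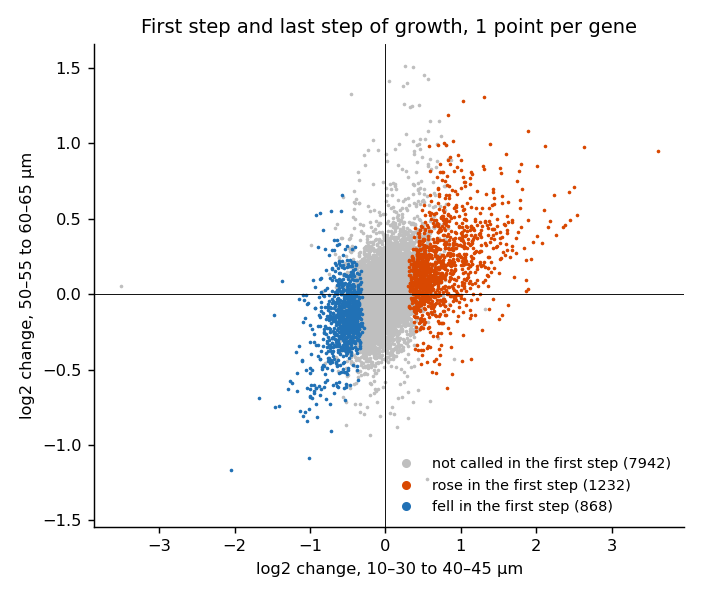
Log2 change from 50–55 to 60–65 μm (vertical axis) against the log2 change from 10–30 to 40–45 μm (horizontal axis), 1 point per gene, coloured by the adjusted test in the first step. Of the 1232 early risers 773 were higher with no overlap, and of the 868 early fallers 547 were lower.

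The 2 replicates at 60–65 μm differed along the same direction. Replicate A was above replicate B for 59.7% of the early risers, for 28.8% of the early fallers and for 46.6% of all genes tested.

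Among the early risers that were higher again in the last step, chosen after their values were seen, Spry4, an inhibitor of receptor tyrosine kinase signalling to ERK, was at 0.259 and 0.448 RPKM at 10–30 μm, 2.65 and 2.46 RPKM at 40–45 μm, 8.25 and 8.81 RPKM at 50–55 μm and 20.1 and 14.9 RPKM at 60–65 μm. Its last step of 0.97 ± 0.19 (SE) was below its first of 2.62, with an adjusted p of 0.0342 for the difference. Ehf, an ETS-family transcription factor of epithelia, was at 0.677 and 0.519 RPKM at 10–30 μm, 2.36 and 1.41 RPKM at 40–45 μm, 5.82 and 4.3 RPKM at 50–55 μm and 10.2 and 8.39 RPKM at 60–65 μm. Magea10, Ildr1, Cox6a2 and Syde1 had last steps of 0.93, 0.92, 0.89 and 0.85 after first steps of 1.59, 0.96, 1.00 and 1.29. Syde1 and AB099516 were lower in the GV library (2.82 and 9.89 RPKM) than in both 60–65 μm libraries (3.27 and 3.08, and 11.9 and 10.6 RPKM).

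A smaller set was separated in the opposite direction in the last step. Hmga2, a chromatin protein that bends AT-rich DNA, was at 1.91 and 2.75 RPKM at 10–30 μm, 3.91 and 4.06 RPKM at 40–45 μm, 3.27 and 4.01 RPKM at 50–55 μm and 2.11 and 2.7 RPKM at 60–65 μm. It rose in the first step and was lower in the last (-0.62 ± 0.17, SE), and the steps differed with an adjusted p of 0.0344. Sp110, a nuclear body protein, was at 22.9 and 25.7 RPKM at 10–30 μm, 34.7 and 38.9 RPKM at 40–45 μm, 29.8 and 34.5 RPKM at 50–55 μm and 22.5 and 26.1 RPKM at 60–65 μm. Dio3, which inactivates thyroid hormone, was at 3.15 and 3.63 RPKM at 10–30 μm, 5.37 and 5.52 RPKM at 40–45 μm, 4.26 and 4.89 RPKM at 50–55 μm and 3.38 and 3.86 RPKM at 60–65 μm. Trim30a and Olfr1340 followed the same course, with last steps of -0.46 and -0.52. In the other direction, Bcat1, the cytosolic branched-chain aminotransferase, was at 1.13 and 0.929 RPKM at 10–30 μm, 0.568 and 0.559 RPKM at 40–45 μm, 0.697 and 0.599 RPKM at 50–55 μm and 1.08 and 0.958 RPKM at 60–65 μm, and Minpp1, an inositol phosphate phosphatase, at 3.03 and 3.06 RPKM at 10–30 μm, 1.7 and 2.05 RPKM at 40–45 μm, 2.26 and 2.08 RPKM at 50–55 μm and 2.99 and 2.65 RPKM at 60–65 μm. Mfsd1 had fallen in the first step and was at 2.9 and 2.32 RPKM at 50–55 μm and 4.13 and 3.78 RPKM at 60–65 μm in the last.

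The test of the last step minus the first compared 2 steps of unequal length (22.5 and 10 μm between midpoints), so a smaller last step need not be a smaller change per μm. It passed for 135 genes, 22 positive (0.219%) and 113 negative (1.13%), with the smallest adjusted p at 0.0124. The first and last steps chose these genes, so their values in those steps are a description. Of the 113 negative genes 112 had risen in the first step, and their median log2 change went from 1.14 in the first step to 0.46 in the middle and 0.063 in the last, with 70 still above 0 and 43 under 0. Of the 22 positive genes 21 had fallen in the first step, and their medians were -0.80, 0.068 and 0.16. Leaving out any of the 4 libraries of the last step left 0 genes.

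The genes with the smallest p were mostly early risers with a small last step. Pak7, a p21-activated kinase, was at 1.4 and 1.38 RPKM at 10–30 μm, 4.27 and 3.78 RPKM at 40–45 μm, 5.24 and 5.2 RPKM at 50–55 μm and 4.67 and 4.86 RPKM at 60–65 μm. Serpinc1, antithrombin, was at 8.8 and 9.5 RPKM at 10–30 μm, 21.3 and 21.1 RPKM at 40–45 μm, 25.1 and 23.3 RPKM at 50–55 μm and 24 and 25.8 RPKM at 60–65 μm, so that its last step was 0.0017 ± 0.095 (SE) after a first of 1.25. Ppp2r2b, a regulatory subunit of the phosphatase PP2A, went further and was lower in the last step, at 3.07 and 3.62 RPKM at 10–30 μm, 7.23 and 7.24 RPKM at 40–45 μm, 7.87 and 7.68 RPKM at 50–55 μm and 5.58 and 6.23 RPKM at 60–65 μm. For these genes the replicates of a class lay close together beside the early rise.

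Adcy1, an adenylyl cyclase, which makes cyclic AMP, was at 0.977 and 1.01 RPKM at 10–30 μm, 4.18 and 3.39 RPKM at 40–45 μm, 6.76 and 6.37 RPKM at 50–55 μm and 7.1 and 7.27 RPKM at 60–65 μm. Its last step was 0.092 ± 0.12 and the difference from the first -1.77 ± 0.17 (SE; adjusted p = 0.0124). Gpr35, a G protein-coupled receptor, and Arhgap9, a GTPase-activating protein, had last steps of 0.22 and 0.02 after first steps of 1.87 and 1.86. Clec12a and Svopl had last steps of -0.034 and -0.16 after first steps of 1.43 and 1.12.

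In the positive direction, Acot2, a mitochondrial acyl-CoA thioesterase, was at 0.848 and 0.908 RPKM at 10–30 μm, 0.436 and 0.412 RPKM at 40–45 μm, 0.426 and 0.392 RPKM at 50–55 μm and 0.684 and 0.627 RPKM at 60–65 μm. Cenpb, which binds centromeric satellite DNA, was at 0.303 and 0.287 RPKM at 10–30 μm, 0.169 and 0.15 RPKM at 40–45 μm, 0.406 and 0.359 RPKM at 50–55 μm and 0.692 and 0.664 RPKM at 60–65 μm. In both genes the 60–65 μm values were above the 50–55 μm values, with levels under 1 RPKM throughout. Both also passed the filter only through the 60–65 μm libraries, so that their difference in the last step is a description. For Spg11, a protein of lysosome recycling, the last step was near 0 after an early fall, with 2.02 and 2.19 RPKM at 10–30 μm, 0.865 and 1 RPKM at 40–45 μm, 0.712 and 0.714 RPKM at 50–55 μm and 0.77 and 0.688 RPKM at 60–65 μm. Spns1, a transporter of the lysosomal membrane, was at 0.861 and 0.921 RPKM at 10–30 μm, 0.386 and 0.455 RPKM at 40–45 μm, 0.539 and 0.44 RPKM at 50–55 μm and 0.657 and 0.634 RPKM at 60–65 μm. Hist1h2ap, BC013529, Spns1 and Serinc5, also among the 8 positive genes with the smallest p, had last steps of 0.086, 0.16, 0.31 and -0.16.

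**Figure D4:**
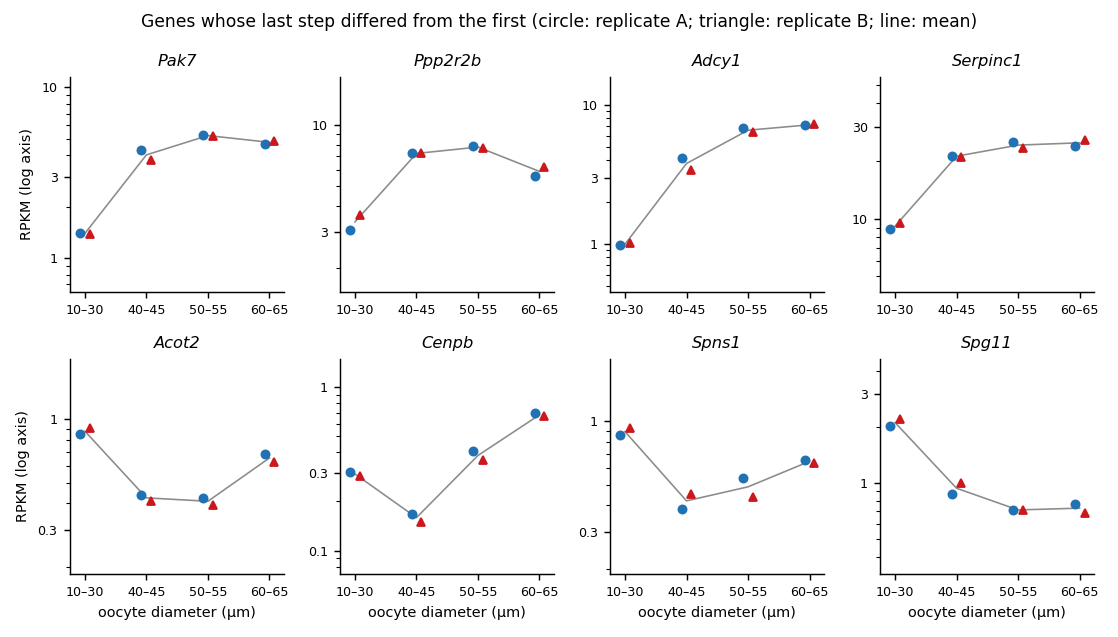
RPKM on a log axis against the oocyte size class for 8 genes whose last step differed from the first by the adjusted test, with replicate A as circles, replicate B as triangles and a line through the class means. Pak7, Adcy1 and Serpinc1 stay near their 50–55 μm level at 60–65 μm, Ppp2r2b is lower there, Acot2, Cenpb and Spns1 are higher, and Spg11 differs little.

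The last 2 steps were also compared with each other. The test of the last step minus the middle one gave 0 genes (0%) in limma with the same adjustment, against 186 at an unadjusted p under 0.05, and both steps share the 50–55 μm libraries, so that an error in these moves them in opposite directions. The 6 genes with the smallest p on the negative side were Lrrn4, AF067063, Has3, S1pr3, Pcdh9 and Lect2, of which AF067063 passed the filter only through the 60–65 μm libraries. Has3, a hyaluronan synthase, was at 0.88 and 1.13 RPKM at 10–30 μm, 2.49 and 2.25 RPKM at 40–45 μm, 4.47 and 4.01 RPKM at 50–55 μm and 4.22 and 4.3 RPKM at 60–65 μm, and S1pr3, a sphingosine 1-phosphate receptor, at 0.265 and 0.337 RPKM at 10–30 μm, 0.928 and 1.02 RPKM at 40–45 μm, 2.19 and 2.12 RPKM at 50–55 μm and 2.92 and 2.62 RPKM at 60–65 μm. Pcdh9, a protocadherin, had a last step of 0.19 ± 0.09 (SE) after 1.27 and 0.76. On the positive side they were Fdx1l, Rab28, Mvd, Arl3, Hist1h2al and Tceal8. Rab28, a small GTPase, had fallen by 0.64 and 0.62 on the log2 scale and was at 0.832 and 0.886 RPKM at 50–55 μm and 0.872 and 0.895 RPKM at 60–65 μm, a last step of 0.0034 ± 0.099 (SE), and Mvd, an enzyme of cholesterol synthesis, had a last step of -0.016 after -0.57.

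Some genes were level in the first step and separated in the last. With a first step within 0.2 of 0 and no call there, a mean of at least 1 RPKM, separated libraries and an unadjusted p under 0.05, there were 281 genes, 124 higher and 157 lower. They were 7.16% of the 3926 genes level in the first step, beside 932 (11.9%) of the 7836 genes at that mean whatever their first step, and 0 passed the adjusted test. The genes named were chosen after their values were seen. Slc18a2, the vesicular monoamine transporter, was at 0.36 and 0.379 RPKM at 10–30 μm, 0.376 and 0.341 RPKM at 40–45 μm, 0.702 and 0.599 RPKM at 50–55 μm and 1.33 and 0.994 RPKM at 60–65 μm. Spire2, an actin nucleator that acts in asymmetric division of the oocyte, was at 0.665 and 0.64 RPKM at 10–30 μm, 0.7 and 0.739 RPKM at 40–45 μm, 1.27 and 1.13 RPKM at 50–55 μm and 1.99 and 1.91 RPKM at 60–65 μm. Optn, an autophagy receptor, was at 14 and 15.1 RPKM at 10–30 μm, 12.3 and 14 RPKM at 40–45 μm, 7.65 and 8.64 RPKM at 50–55 μm and 5.06 and 5.67 RPKM at 60–65 μm, and Arhgef5, a guanine nucleotide exchange factor, at 0.912 and 1.16 RPKM at 50–55 μm and 0.549 and 0.629 RPKM at 60–65 μm. Snx22, Tmem132d, Lyrm7 and Pla1a had last steps of 0.65, 0.73, -0.64 and -0.62. The middle step was -0.73 for Optn, 0.63 for Spire2 and -0.21 for Arhgef5.

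The most abundant transcripts included the main products of the oocyte. The 10 highest mean levels at 60–65 μm belonged to Gm16211, Hexdc, Padi6, Nlrp14, Zp2, Ldhb, Zp3, Gdf9, H1foo and Dnmt1. Gdf9, a growth factor that the oocyte secretes to its granulosa cells, was at 538 and 544 RPKM at 50–55 μm and 579.95 and 529 RPKM at 60–65 μm, a log2 change of -0.0038 with a 95% interval from -0.25 to 0.242. H1foo, the linker histone of oocytes, was at 455 and 416 RPKM at 50–55 μm and 444 and 449 RPKM at 60–65 μm. Zp2 and Zp3, glycoproteins of the zona pellucida, were lower in both 60–65 μm libraries: Zp2 was at 848 and 875 RPKM at 50–55 μm and 619.5 and 734 RPKM at 60–65 μm (-0.39 ± 0.13, SE, unadjusted p = 0.0153), and Zp3 at 703 and 746 RPKM at 50–55 μm and 595 and 650.01 RPKM at 60–65 μm (-0.26 ± 0.14, SE). Ldhb, a subunit of lactate dehydrogenase, was at 672 and 675 RPKM at 50–55 μm and 656 and 589.6 RPKM at 60–65 μm. Over the 10 tested genes of the zona and of secreted oocyte factors the median was 0.075, with 2 separated and higher and 3 lower, beside 26.5% each way over all genes.

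Of 15 tested genes for the subcortical maternal complex, needed by the early embryo, and the NLRP proteins of oocytes, 7 had risen in the first step. In the last step 8 (53.3%) were separated and lower and 3 (20%) higher, 3 and 2 of them at an unadjusted p under 0.05, and the median log2 change was 0.52, 0.14 and -0.17 in the 3 steps. The last of these medians was -0.047 with limma voom on rebuilt reads. That fit left out genes whose reads were not rebuilt, Padi6 and Nlrp14 among them, so the 2 medians do not cover the same genes. Padi6, a peptidylarginine deiminase of the oocyte lattices, was at 1099 and 1221 RPKM at 50–55 μm and 884 and 1006 RPKM at 60–65 μm, and Nlrp14 at 966 and 861 RPKM at 50–55 μm and 709.5 and 792 RPKM at 60–65 μm. Nlrp5, also called MATER, was at 372 and 387 RPKM at 50–55 μm and 290.1 and 298 RPKM at 60–65 μm. Against these, Nlrp9a was at 16.9 and 15.5 RPKM at 50–55 μm and 22.1 and 21.2 RPKM at 60–65 μm and Nlrp9b at 28.9 and 36.9 RPKM at 50–55 μm and 40.5 and 43.4 RPKM at 60–65 μm, a pair with close copies, so that their reads could be split between them.

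Of 16 tested transcription factors of germ cells, 7 (43.8%) were separated and higher and 5 (31.2%) lower, with 3 and 4 at an unadjusted p under 0.05. Beside Sohlh1 and Sohlh2, the lower ones included Figla, which drives the zona genes, at 16.3 and 16 RPKM at 50–55 μm and 11.6 and 12.6 RPKM at 60–65 μm, and Tbpl2, the oocyte's TBP-related factor, at 10.4 and 9.54 RPKM at 50–55 μm and 7.84 and 8.92 RPKM at 60–65 μm. Obox1, Obox2 and Sebox, homeobox genes that had risen in the first step, were separated and higher. Obox1 was at 77.8 and 64.8 RPKM at 50–55 μm and 93.8 and 94.8 RPKM at 60–65 μm, Obox2 at 161 and 129 RPKM at 50–55 μm and 189 and 184 RPKM at 60–65 μm (unadjusted p = 0.0973) and Sebox at 13.9 and 12 RPKM at 50–55 μm and 17.7 and 16.9 RPKM at 60–65 μm. Nobox, a homeobox factor of early follicles that was not called in the first step, was also separated and higher, at 54.1 and 56.3 RPKM at 50–55 μm and 59.5 and 59.2 RPKM at 60–65 μm (unadjusted p = 0.57). Obox1 and Obox2 had risen by 1.73 and 2.08 in the first step, and their last steps differed from the first with adjusted p of 0.0282 and 0.0309. The Obox paralogs are alike in sequence, and reads could be split between them.

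The methylation enzymes bear on the study's question. Of 18 tested genes of DNA methylation and of the H3K4 and H3K36 marks, 4 (22.2%) were higher and 6 (33.3%) lower. Dnmt3l, the cofactor of DNMT3A, was at 0.825 and 0.888 RPKM at 10–30 μm, 3.65 and 2.7 RPKM at 40–45 μm, 6.21 and 5.35 RPKM at 50–55 μm and 11.3 and 8.25 RPKM at 60–65 μm, and its last step was 0.70 ± 0.19 (SE; unadjusted p = 0.00534, adjusted p = 0.197). Dnmt3a, the enzyme itself, was at 2.87 and 3.53 RPKM at 50–55 μm and 3.76 and 3.48 RPKM at 60–65 μm, with a 95% interval of the log2 change from -0.153 to 0.432. Dnmt1, the maintenance enzyme, was at 402 and 454 RPKM at 50–55 μm and 376 and 389 RPKM at 60–65 μm. Kdm1b, an H3K4 demethylase required for methylation of many sites in oocytes, was at 84.2 and 87.4 RPKM at 50–55 μm and 65.5 and 73.7 RPKM at 60–65 μm, a log2 change of -0.34 ± 0.11 (SE; unadjusted p = 0.011). Dppa3, which protects against loss and gain of methylation, was at 271 and 262 RPKM at 50–55 μm and 213 and 248 RPKM at 60–65 μm.

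Of 16 tested genes of meiotic prophase, 8 (50%) were separated and lower and 1 (6.25%) higher, 3 and 0 of them at an unadjusted p under 0.05, and the medians were -0.30, -0.13 and -0.13. Beside Smc1b, Syce1 of the synaptonemal complex was at 0.954 and 1.03 RPKM at 50–55 μm and 0.507 and 0.628 RPKM at 60–65 μm, while Syce2 of the same structure, the most abundant of the list, was at 37.3 and 36.5 RPKM at 50–55 μm and 37 and 39 RPKM at 60–65 μm, and Psmc3ip at 8.13 and 7.85 RPKM at 50–55 μm and 6.92 and 7.96 RPKM at 60–65 μm. Of 15 genes of the piRNA pathway and transposon defence, 10 (66.7%) were lower and 2 (13.3%) higher, with a median of -0.15. Mov10l1, a helicase of piRNA production, was at 1.93 and 2.42 RPKM at 50–55 μm and 1.23 and 1.56 RPKM at 60–65 μm, Mael at 10.3 and 10.2 RPKM at 50–55 μm and 7.06 and 8.58 RPKM at 60–65 μm, and the most abundant, Tdrd1 and Gtsf1, had log2 changes of -0.16 and -0.12. Piwil1, a PIWI protein, went the other way, at 0.257 and 0.187 RPKM at 50–55 μm and 0.965 and 0.533 RPKM at 60–65 μm, but it passed the filter only through the 60–65 μm libraries.

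Of 36 tested regulators of meiotic arrest and resumption, 15 (41.7%) were separated and higher and 6 (16.7%) lower, and 2 were higher and 0 lower at an unadjusted p under 0.05, beside 6.98% higher over all genes, with a median of 0.067 after 0.12 and 0.13. Bub1b, a kinase of the spindle checkpoint, was at 67.9 and 61.2 RPKM at 50–55 μm and 85.4 and 77.4 RPKM at 60–65 μm, Mos, the kinase upstream of MAPK in the egg, at 99.5 and 90.6 RPKM at 50–55 μm and 109 and 108 RPKM at 60–65 μm, and Ccnb3, cyclin B3, at 1.3 and 0.998 RPKM at 50–55 μm and 1.85 and 1.57 RPKM at 60–65 μm. Of 21 genes of mRNA storage and translation control, 4 (19%) were higher and 6 (28.6%) lower, and of 20 genes of deadenylation and decay 3 (15%) were higher and 4 (20%) lower. Zar1 was at 253 and 245 RPKM at 50–55 μm and 279 and 280.1 RPKM at 60–65 μm, Lsm14b had a log2 change of -0.042, Btg4, which recruits the deadenylase when maternal RNA is cleared, was at 183 and 165 RPKM at 50–55 μm and 197 and 200.3 RPKM at 60–65 μm, and Dcp1a, a decapping factor, at 46.5 and 52.6 RPKM at 50–55 μm and 52.4 and 51.4 RPKM at 60–65 μm. Among 14 genes of the egg surface, calcium and cortical granules 5 (35.7%) were higher and 2 (14.3%) lower. Of these, Folr4, the egg receptor for sperm IZUMO1, was at 12 and 11.9 RPKM at 50–55 μm and 16.2 and 15.7 RPKM at 60–65 μm, Astl at 178 and 164 RPKM at 50–55 μm and 159.7 and 169 RPKM at 60–65 μm and Pla2g4c at 144 and 133 RPKM at 50–55 μm and 134 and 135 RPKM at 60–65 μm. Of 11 genes of contact with granulosa cells 3 (27.3%) were higher and 2 (18.2%) lower, Gja4, the connexin of the oocyte's gap junctions, being at 66.6 and 75.4 RPKM at 50–55 μm and 83.2 and 81.5 RPKM at 60–65 μm and Kit, the receptor of KIT ligand, at 23.7 and 31.9 RPKM at 50–55 μm and 27.7 and 27.7 RPKM at 60–65 μm.

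Transcripts of cytosolic ribosomal proteins, of which 40 of the 79 tested had fallen in the first step, differed less in the last. The median log2 change was -0.53 in the first step, -0.43 in the middle and -0.13 in the last, beside medians within 0.01 of 0 over all genes. Their summed level was 3659.9 and 2852 RPKM at 10–30 μm, 2243 and 2278 RPKM at 40–45 μm, 1763 and 1641 RPKM at 50–55 μm and 1569 and 1606 RPKM at 60–65 μm. In the last step 39 genes (49.4%) were separated and lower and 2 (2.53%) higher, and 3 were lower at an unadjusted p under 0.05. Rps23 was at 52.7 and 52.3 RPKM at 50–55 μm and 29.3 and 36 RPKM at 60–65 μm and Rps6 at 4.46 and 4.66 RPKM at 50–55 μm and 3.3 and 4.05 RPKM at 60–65 μm, whereas the most abundant, Rps12 and Rplp1, were at 103 and 78.7 RPKM at 50–55 μm and 94.1 and 81.3 RPKM at 60–65 μm and at 72.5 and 71.2 RPKM at 50–55 μm and 71.5 and 77.2 RPKM at 60–65 μm. Genes of ribosomal proteins have many processed copies in the genome, so single values are uncertain.

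Nuclear genes of oxidative phosphorylation had medians of -0.30, -0.38 and -0.089. Of 85 tested, 38 (44.7%) were separated and lower and 6 (7.06%) higher, and the most abundant, Cox4i1 and Atp5a1, had log2 changes of -0.16 and -0.14. The 13 protein genes of the mitochondrial genome had a median of -0.31, but 3 (23.1%) were separated and lower and 0 higher, and the replicates of a class differed widely: mt-Co1 was at 209.9 and 282 RPKM at 50–55 μm and 164 and 214 RPKM at 60–65 μm, and mt-Co3 at 211 and 243 RPKM at 50–55 μm and 163 and 192 RPKM at 60–65 μm. Of 71 mitochondrial ribosomal proteins 18 (25.4%) were lower and 13 (18.3%) higher, Mrps22 being at 24.6 and 21.5 RPKM at 50–55 μm and 24 and 23.9 RPKM at 60–65 μm and Mrpl32 at 21.7 and 19.5 RPKM at 50–55 μm and 18.4 and 19.6 RPKM at 60–65 μm. Of 34 proteasome genes 9 (26.5%) were lower and 1 (2.94%) higher, with Psma2 at 46.6 and 40.9 RPKM at 50–55 μm and 45.3 and 46.1 RPKM at 60–65 μm and Psmb7 at 27.9 and 25.9 RPKM at 50–55 μm and 25 and 27.4 RPKM at 60–65 μm. Of 29 genes of glycolysis and the citrate cycle 9 (31%) were lower and 4 (13.8%) higher, and Pkm, pyruvate kinase, was at 79.2 and 75.2 RPKM at 50–55 μm and 82 and 77.5 RPKM at 60–65 μm.

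Chaperones were the list with the largest separated share in 1 direction among those fixed with at least 20 tested genes. Of 28 tested, 18 (64.3%) were lower and 1 (3.57%) higher, 7 of the lower at an unadjusted p under 0.05, and the median was -0.19 after -0.078 and -0.26. Hsp90aa1, the inducible HSP90, was at 304 and 312 RPKM at 50–55 μm and 232 and 256 RPKM at 60–65 μm. Hspa8, the constitutive HSP70, was at 99.4 and 93.6 RPKM at 50–55 μm and 74.4 and 77.1 RPKM at 60–65 μm, and Hsp90b1, the HSP90 of the endoplasmic reticulum, at 46.9 and 51.9 RPKM at 50–55 μm and 38.3 and 40.3 RPKM at 60–65 μm. The separation in each of these 3 was complete. Of 19 genes of cholesterol synthesis and uptake 6 (31.6%) were lower and 2 (10.5%) higher, with a median of -0.064 after -0.26 in the middle step. Cyp51, lanosterol demethylase, was at 1.12 and 1.11 RPKM at 50–55 μm and 0.726 and 0.789 RPKM at 60–65 μm (unadjusted p = 0.00112), and the most abundant, Insig1 and Fdft1, at 88 and 78.9 RPKM at 50–55 μm and 76 and 75.5 RPKM at 60–65 μm and at 50.8 and 48.2 RPKM at 50–55 μm and 52.5 and 52.3 RPKM at 60–65 μm.

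For replication-dependent histones the median changed sign. Over 57 tested genes, whose transcripts end in a stem-loop in place of a poly(A) tail in dividing cells, the median log2 change was -0.34 and -0.24 in the first 2 steps and 0.13 in the last, with 27 (47.4%) separated and higher and 7 (12.3%) lower. Only 1 was higher and 3 were lower at an unadjusted p under 0.05, so that most of the separated genes did not reach that p. Hist1h2aa was at 96.2 and 103 RPKM at 50–55 μm and 125 and 134 RPKM at 60–65 μm, Hist1h2bk at 39.1 and 32.6 RPKM at 50–55 μm and 51.3 and 50.3 RPKM at 60–65 μm and Hist1h1a, the most abundant, at 175 and 177 RPKM at 50–55 μm and 157 and 173 RPKM at 60–65 μm. Hist2h2bb, in contrast, was at 4.81 and 4.4 RPKM at 50–55 μm and 3.19 and 3.48 RPKM at 60–65 μm. These genes are near-identical copies, and a read that matches several of them may be given to any 1. The 3 snoRNA host genes that passed the filter, Rps29 and Ncl among them, were not separated, with log2 changes of -0.0011 for Rps29 and 0.082 for Ncl.

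**Figure D5:**
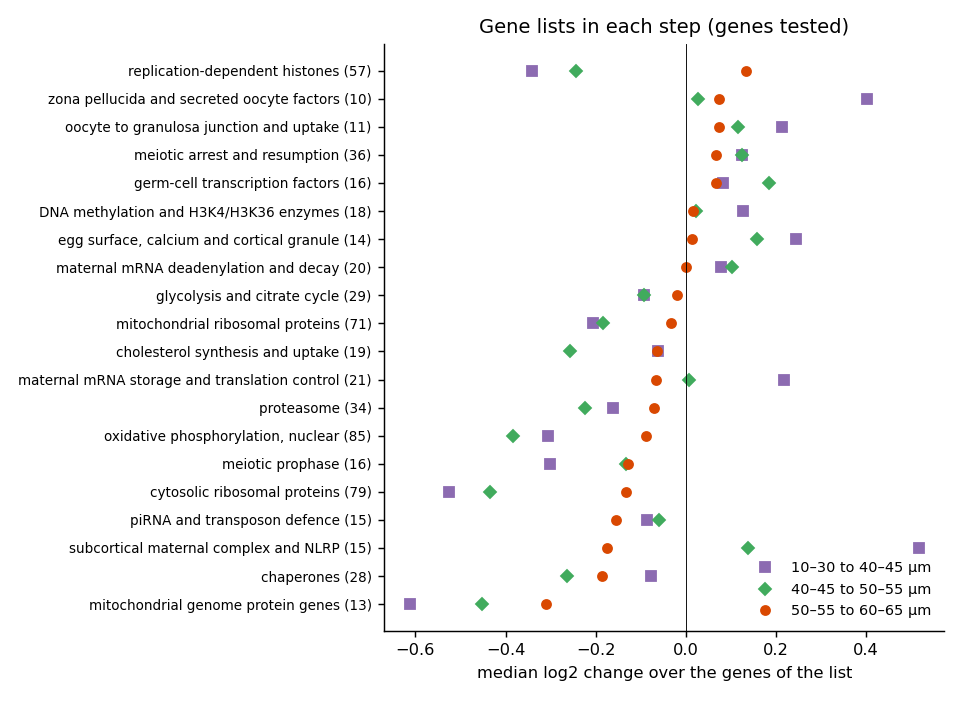
Median log2 change over the tested genes of each list (number in brackets) in each of the 3 steps, for the 20 lists with at least 10 tested genes. Cytosolic ribosomal proteins move from -0.53 and -0.43 to -0.13, the subcortical maternal complex and NLRP list from 0.52 and 0.14 to -0.17, and replication-dependent histones from -0.34 and -0.24 to 0.13.

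The DNA at the annotated starts of genes was read for CpG dinucleotides, the sites at which methylation occurs. In the window from 250 bases before to 50 bases after the start given in the table, read from GRCm38, the 316 genes that rose in the first step and were higher again in the last had a median of 9 CpGs, and 160 of them (50.6%) had fewer than 10. The 219 genes that fell and were lower again had a median of 18, with 45 (20.5%) under 10, and over the 10040 tested genes with a window the median was 20, with 21.1% under 10. All genes higher in the last step at an unadjusted p under 0.05, called early or not, had a median of 14 with 40.1% under 10, and all lower ones a median of 17 with 26.7% under 10. The median level at 60–65 μm was 3.18 RPKM for the first group, 1.33 RPKM for the second and 3.39 RPKM for all genes. This comparison was chosen after the changes were seen, has no test, and uses annotated starts, which need not be those used in oocytes.

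The 150 bases before the annotated start are shown for 2 genes from the lower end and 2 from the upper end of the last step, 5′ to 3′ on the strand of the gene, with each CpG in capitals. Sohlh1 is at chr2:25847249-25847398 (minus strand), Smc1b at chr15:85131958-85132107 (minus), Steap4 at chr5:7960322-7960471 (plus) and Mbd3l2 at chr9:18443306-18443455 (plus), all in GRCm38.
Sohlh1: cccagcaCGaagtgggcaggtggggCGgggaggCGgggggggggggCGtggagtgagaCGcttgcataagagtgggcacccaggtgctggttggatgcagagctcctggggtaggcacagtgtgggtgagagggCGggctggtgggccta
Smc1b: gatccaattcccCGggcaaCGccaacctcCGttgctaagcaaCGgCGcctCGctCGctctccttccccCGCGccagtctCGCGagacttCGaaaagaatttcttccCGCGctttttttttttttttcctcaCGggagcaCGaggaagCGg
Steap4: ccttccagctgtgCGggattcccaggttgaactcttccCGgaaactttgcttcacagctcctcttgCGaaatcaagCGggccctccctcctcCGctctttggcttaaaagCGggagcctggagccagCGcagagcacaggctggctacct
Mbd3l2: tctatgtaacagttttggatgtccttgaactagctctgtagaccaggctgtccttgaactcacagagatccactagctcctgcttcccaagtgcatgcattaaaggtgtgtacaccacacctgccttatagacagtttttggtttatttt
These stretches held 6, 17, 7 and 0 CpGs. Steap4 was not called in the first step and is not among the 316 genes.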

How the data were processed

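Strand-specific total RNA libraries were sequenced by the authors as 100-base read pairs. Per the labels, reads were trimmed with Trim Galore and aligned to GRCm38 with TopHat2 2.0.9. The authors deposited RPKM values for 25965 reference genes, and the study's methods name SeqMonk for RNA-seq analysis and Cufflinks for FPKM values of transcripts. Which program made the RPKM table, and whether it counted by strand, is not given in the sources used here. Overlapping and antisense genes therefore cannot be told apart.

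For 99.9% of the 20278 rows with a value above 0, all values were whole multiples, within 0.03 reads, of what 1 read is worth, from which the reads were rebuilt. The 12 rows not rebuilt included several of the most abundant genes, and the fits to rebuilt reads left them out. Genes with at least 0.5 RPKM in 2 of the 4 libraries were kept (126 of them only through both 60–65 μm libraries and 54 only through both 50–55 μm libraries). RPKM values were scaled by a trimmed mean leaving out 30% of the ratios at each end and 5% by level (factors 0.954 to 1.04), and log2(RPKM + 0.1) was fitted with limma 3.58.1 (R 4.3.3), with a variance trend, 1 mean per size class and all 8 libraries of growing oocytes. P-values were adjusted by the Benjamini-Hochberg method with a threshold of 0.05. A fold change on this scale is understated for low genes. The count test set out for count tables was not used, since the values are RPKM. Permuting 4 libraries cannot give a two-sided p under 0.333, so none was run on single genes.

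Replicates are named A and B in the labels, with no statement that they came from separate animals, so p-values measure the spread between these samples. Members, lists and tests were chosen with earlier results of these data known. The rule for named genes took the 12 largest rises and falls and the genes called in both the first and the last step among adjusted calls (none here), the 6 smallest p each way in the contrast of the last 2 steps, the 2 most abundant genes of each list without a call, the 10 highest levels at 60–65 μm, and Dnmt3a, Dnmt3l, Dnmt1, Kdm1b, Zp3 and Gdf9. Other names were chosen after their values were seen, and some single genes are not reported here. Other pseudocounts, filters, scalings, libraries left out, a replicate block and fits to rebuilt reads were tried. Python 3.11.15 was used.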

Additional observations from a re-analysis of the deposited data

Results flagged for a closer look

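The last step of growth differed from the first for 135 genes by the test of the difference in limma, with an adjusted p under 0.05, in the same growing oocytes at other sizes. Leaving out any 1 of the 4 libraries of the last step left 0 of these calls, and the 2 steps also differ in the age of the mice and in length (22.5 and 10 μm between the midpoints of the classes), so a smaller last step need not be a smaller change per μm. The differences below are log2 change of the last step minus that of the first.

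After an early rise the last step was below the first for Pak7 (-1.67), Adcy1 (-1.77), Arhgap9 (-1.84), Gpr35 (-1.64), Clec12a (-1.46), Svopl (-1.28), Serpinc1 (-1.25), Pcdh9 (-1.08), S1pr3 (-1.16), Has3 (-1.24), Lect2 (-1.30), Spry4 (-1.65) and Pla2g4c (-0.86). The oocyte homeobox genes Obox1 (-1.36) and Obox2 (-1.74) were also among them. Of the 113 genes with a negative difference, 16 were also lower in the last step at an unadjusted p under 0.05, and 20 were higher. Among the lower were Ppp2r2b (-1.57), Olfr1340 (-1.19), Dio3 (-1.08), Sp110 (-1.08), Trim30a (-1.18) and Hmga2 (-1.44).

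After an early fall the last step was above the first for Acot2 (1.40), Hist1h2ap (1.46), BC013529 (0.95), Spg11 (1.05), Spns1 (1.21), Cenpb (1.24), Serinc5 (0.90), Bcat1 (1.28) and Minpp1 (0.96). Acot2 and Cenpb passed the filter only through the 60–65 μm libraries in which they were higher, so their values are a description. Hist1h2ap has near-identical copies, so its value is uncertain.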

How the results depend on the processing

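Of 190 values recomputed under 14 planned settings and 4 chosen after seeing the data, 147 were within 1.5 times the count, or within 1 SD for a median, and 0 reversed. The 24 genes with the largest differences kept their sign in each setting in which they were tested, 17 for Cmtm8, Defb41 and Bbx and 18 for the others. Called higher in 60–65 μm oocytes were 8 genes with a pseudocount of 1 RPKM, and with limma voom on rebuilt reads with library quality weights 172 higher and 158 lower, against 0 in every fit that left out a library, 0 with 4 libraries only (smallest adjusted p = 0.0611) and 0 with voom without weights. Genes called in the first and the last step were 2 with the pseudocount of 1 and 90 with quality weights. Genes whose last step differed from the first were 235 with a filter over all 8 libraries, 79 with quality weights, and 0 in each fit without 1 library. At an unadjusted p, genes higher and lower were 1476 and 1017 without a filter and 1075 and 938 with 4 libraries only, the lower were 1252 with quality weights, and they ranged from 209 to 619 and from 174 to 604 over the fits without 1 library.

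With a replicate block, 148 genes were called higher, 65 lower, 135 in both the first and the last step, and 505 with a last step unlike the first. With the block and the 4 libraries only they were 519 and 335, and 1200 and 1023 at an unadjusted p. Deviations of A from B correlated between r = 0.603 and 0.683 among the 3 smaller classes, and at -0.234, -0.039 and 0.104 between these and the 60–65 μm class. Not every pair of classes was over 0.1, so the letters were not taken as pairs and this gain was not used.

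Early risers with separated libraries numbered 333 and early fallers 224 with quality weights, in which 491 and 298 genes in all were called early. The median last step of early risers was 0.182 and 0.128 with pseudocounts of 0.01 and 1 RPKM, 0.147 without a filter, 0.221 without scaling, 0.154 with the block, 0.160 with voom and 0.186 with weights, and from 0.157 to 0.224 over fits without 1 library. That of early fallers was -0.245 with weights and from -0.238 to -0.141 without 1 library. Without scaling the median of all genes was 0.040, and the medians of the glycolysis and mitochondrial ribosomal lists changed sign. With voom without weights the median of all genes was -0.030, and the medians of the methylation, egg surface and decay lists changed sign. The 12 largest rises rest on 21 to 1899 rebuilt reads a library and the 12 largest falls on 158 to 5330.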
